A study of Homo sapiens with 7 samples.

Results

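The genes described here encode 9 nuclear receptor coregulators: the p160 coactivators NCOA1, NCOA2 and NCOA3, the Mediator subunit MED1, the acetyltransferases CREBBP and EP300, the coactivators PPARGC1A and PPARGC1B, and the corepressor NCOR1. They were taken by name out of 19974 protein-coding genes, and all 9 were present in the annotation. For each gene, peaks of PPARα chromatin immunoprecipitation with a summit in the gene span or within 50 kb of it were collected, and this stretch is called the window. The cells were HepG2, a line from a human hepatocellular carcinoma, and every group carried an overexpressed PPARα vector and received the PPARα agonist WY14643 (also written Wy13643 in the labels) at 10 µM for 2 h, with agonists given 48 h after transfection. The PPARα+ERα cells also carried an estrogen receptor ERα vector and were pretreated for 45 min with the ERα-selective agonist PPT at 10 nM. The PPARα+ERβ cells carried an ERβ vector and were pretreated for 45 min with the ERβ-selective agonist DPN at 10 nM. Vector and pretreatment therefore cannot be told apart, and all binding was measured with receptors supplied from vectors. Each group had 2 libraries, numbered by order of deposit, and nothing describes them as separate cultures. Each SD and p below measures the spread between these libraries, which may be technical. All 6 libraries were precipitated with an antibody to PPARα, so "ERα group" and "ERβ group" below name the cells and not the protein precipitated, and the group without an estrogen receptor vector is the PPARα group. A sample without antibody was not analysed here.

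Nuclear receptors such as PPARα bind DNA as dimers and change transcription through coregulators. With an agonist bound, the receptor surface takes up p160 coactivators, which bring in the histone acetyltransferases CREBBP and EP300, while MED1 links receptors to the Mediator complex and RNA polymerase II. Without agonist, many receptors hold NCOR1, which works with histone deacetylases. PPARGC1A and PPARGC1B encode PGC-1α and PGC-1β, which raise mitochondrial and fatty acid oxidation genes, and in liver PGC-1α is induced by fasting and works with PPARα.

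The peak lists themselves stood apart by group before any gene was considered. The lists held 23805 and 36302 peaks for PPARα, 24505 and 27544 for ERα, and 17457 and 23302 for ERβ. The local background under a peak, recovered from the authors' fold and p, was at the list median 13.5 and 15.7 times the genome-wide level in the PPARα lists and 9.34 and 8.52 times in the ERβ lists. In the ERα lists it was 1.64 and 1.57 times, and a median peak there rested on 9 and 10 fragments against 27.0 to 50 in the other 4 lists. Whether ERα with PPT or a property of these 2 libraries sets the ERα lists apart cannot be told apart, and this touches each comparison with them below. A peak is the authors' call, and a missing peak says only that none was called.

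PPARα peaks were called around each of the 9 genes. Together the windows contained 34 and 63 PPARα peaks in the PPARα group, 36 and 42 in the ERα group, and 35 and 37 in the ERβ group. The PPARα libraries spanned the values of both other groups, so no group was separate. The means were 48.5 ± 20.5 (SD, n = 2) for PPARα, 39.0 ± 4.24 for ERα and 36.0 ± 1.41 for ERβ. The order of the means turned to 25, 31.5 and 33.5 with lists of equal length, and with peaks limited to a local background of at most 3 times the genome-wide level they were 5.5, 24.5 and 4.5. As a share of each list the windows took 0.143% and 0.174%, then 0.147% and 0.153%, then 0.2005% and 0.159%. By an exact two-sided permutation test over libraries, p for the number and for the share was 1.0 and 1.0 for ERα minus PPARα, 1.0 and 0.667 for ERβ minus PPARα, and 0.667 and 0.333 for ERα minus ERβ. With 2 libraries against 2 the smallest possible p is 0.333, and both comparisons with PPARα use the same PPARα libraries.

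**Figure D1:**
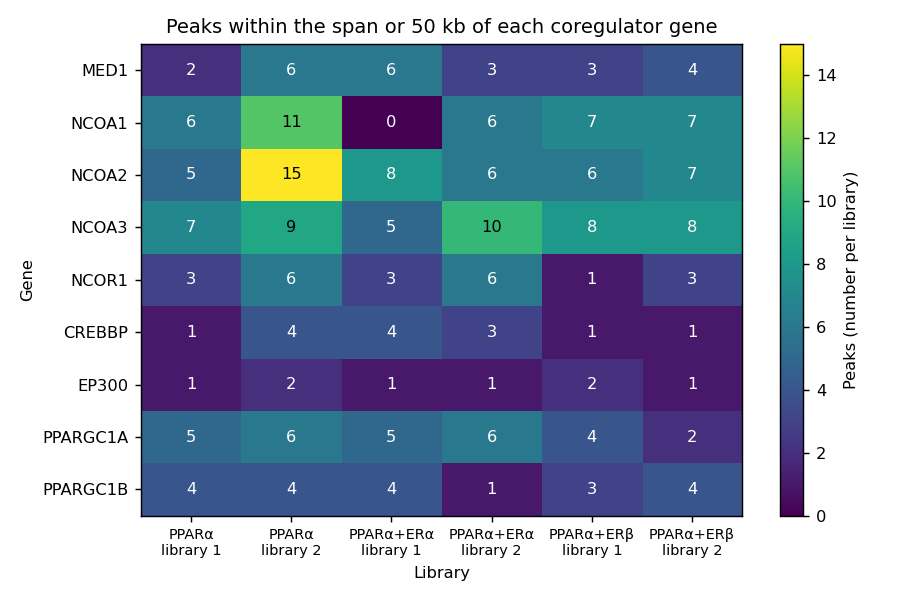
Number of peaks (colour and printed value) in the span or within 50 kb of each coregulator gene (rows) in each of the 6 libraries (columns). NCOA2 reached 15 in PPARα library 2 and NCOA1 was at 0 in ERα library 1, while EP300 had 1 or 2 in every library.

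Over the 6 libraries together, the p160 genes and MED1 were the most densely covered of the 9, and the acetyltransferase genes and PPARGC1A the least. Summed over the 6 libraries and divided by window length, NCOA3 had 18.4 peaks per 100 kb and MED1 16.3, followed by NCOA2 with 10.5, NCOA1 with 9.75, PPARGC1B with 8.79, NCOR1 with 7.68, CREBBP with 5.48, EP300 with 4.27 and PPARGC1A with 3.59. NCOA3, whose product is the SRC-3 coactivator, was above the median of all protein-coding genes in every library, as were MED1 and NCOA2. The density of NCOA3 was 2.75 and 3.53 peaks per 100 kb with PPARα, 1.96 and 3.92 with ERα, and 3.14 and 3.14 with ERβ. The median of genes on chromosome 20, where it lies, was 0.982 and 1.86, then 1.72 and 1.82, then 0.945 and 1.31. EP300, the p300 acetyltransferase gene, lay at 0.533 and 1.07, 0.533 and 0.533, and 1.07 and 0.533 peaks per 100 kb, so libraries of 1 group differed by as much as the groups did. The median over all genes was 0.848 and 1.46 with PPARα, 0.853 and 0.914 with ERα, and 0.703 and 0.907 with ERβ. In each library 6 or 7 of the 9 genes were above that median. The order did not hold within the ERα group or within the ERβ group. With ERα, NCOA1 had a mean of 0.791 peaks per 100 kb, below NCOR1 (1.57), CREBBP (1.37) and PPARGC1B (1.10). With ERβ, the mean of PPARGC1B (1.537) was above that of NCOA2 (1.455). The ERβ mean of EP300 was also above those of NCOR1 (0.698) and CREBBP (0.391). Neighbours in this order, such as NCOA2 and NCOA1 or CREBBP and EP300, overlapped across libraries and are not separated by these counts.

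**Figure D2:**
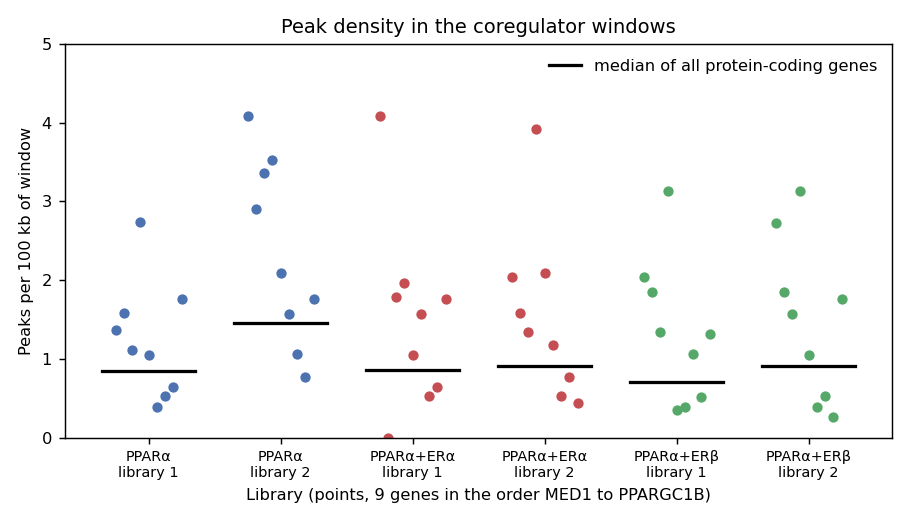
Peaks per 100 kb of window for each of the 9 genes (points, in the order MED1, NCOA1, NCOA2, NCOA3, NCOR1, CREBBP, EP300, PPARGC1A, PPARGC1B from left to right within a library) with the median of all protein-coding genes (black line). In each library 6 or 7 of the 9 points lie above the line, which runs from 0.703 to 1.46.

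Over all windows, 157 of the 247 peaks had their summit inside the span of the coregulator gene itself. Of the 90 outside, 51 lay in the span of another annotated gene and 39 in none. The neighbours matter most for MED1, where 7 peaks lay in FBXL20 and 6 in CDK12, and for NCOR1, where the 12 outside peaks lay in PIGL (7), TTC19 (3) and ZSWIM7 (2). These peaks are assigned by distance, and the gene they act on, if any, was not tested.

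A region is a set of overlapping peaks merged over the 6 libraries, and it was called occupied in a group when both libraries had a peak there. With PPARα, 8 of the 9 genes had an occupied region (all but CREBBP), where 60.5% of all protein-coding genes did. The coregulator windows are long, and among the 6582 genes with a window at least as long as that of MED1, the shortest of the 9, the share was 75.0%. The count of 8 fell to 5 with −log10 q of at least 5, to 5 with lists of equal length and to 1 with a local background of at most 3 times the genome-wide level. With ERα, 6 of 9 genes were occupied (MED1, NCOA2, NCOA3, CREBBP, EP300 and PPARGC1A) against 38.0% of all genes and 52.5% of those with long windows. With ERβ, 7 of 9 were occupied (all but CREBBP and EP300) against 46.6% and 60.6%. The ERα count was 3 in the gene spans only, and the ERβ count was 1 at the low background. All 3 counts are nearer to the background of genes with long windows than to that of all genes. That background is matched on length only in part. It asks for a window of at least 146979 bp, and the member windows run up to 780885 bp. A further list of 77 genes held 71 other cofactors, such as Mediator subunits, deacetylases and methyltransferases, and the 6 RXR and PPAR receptor genes. Of the 71 cofactor genes, 44, 33 and 38 were occupied with PPARα, ERα and ERβ (62.0%, 46.5% and 53.5%), against 60.5%, 38.0% and 46.6% of all genes.

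MED1, NCOA2, NCOA3, EP300 and PPARGC1A were occupied in both the PPARα and the ERα group, but at no common region. In the windows, 12 of the 13 regions occupied with ERα had no peak in either PPARα library, as did 8434 of 8866 over all regions. Regions with a peak in both ERα libraries and neither PPARα library stood at the 6 genes of 9 that were occupied in the ERα group, with a background of 36.7% of all genes and 51.1% of those with long windows. Regions with a peak in both PPARα and neither ERα library stood at 8 of 9, against 58.9% and 73.4%, and this count became 5, 5 and 1 under the same alternatives. Against ERβ, ERα had such regions at 6 of 9 genes (background 35.5% and 50.0%), and ERβ had them against ERα at 7 of 9 (43.0% and 56.6%). Between ERβ and PPARα, 5 of 9 genes (MED1, NCOA2, NCOA3, NCOR1 and PPARGC1A) had a region in both ERβ libraries and neither PPARα library, where 10.8% of all genes and 14.9% of those with long windows did. This was the count farthest above its background, and each of the 5 genes owed it to 1 region. Counted over regions in place of genes, 5 regions (5.43% of those with a PPARα or ERβ peak in the windows) differed in this way, against 2.75% of all regions. The count of genes was 3 when only peaks with a −log10 q of at least 5 were kept and 8 when ERβ library 1 was left out, which leaves a rule that asks for 1 library only. In the other direction 3 of 9 genes (NCOA2, NCOR1 and PPARGC1A) had a region in both PPARα and neither ERβ library, with a background of 25.3% and 37.4%. Counted over regions, these were 3.26% against 10.2% of all regions. That count was 9 and 8 without PPARα library 1 and library 2, and 6 and 5 without ERβ library 1 and library 2.

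The p160 coactivator genes carried 8 of the 12 regions that were seen in all 4 PPARα and ERβ libraries. Their windows also held many of the 153 regions of any kind, with 20 at NCOA1, 29 at NCOA2 and 24 at NCOA3. Whether 8 of 12 is more than that share of regions would give was not tested. NCOA3 had 24 regions, of which 8 were seen in 3 or more libraries. One of them, chr20:47627870-47628425, lay inside NCOA3, 126400 bp downstream of its annotated start, with folds of 6.85 and 6.18 in the PPARα libraries and 4.39 and 5.38 in the ERβ libraries. It held 80, 81, 51 and 74 fragments in these lists and had no ERα peak. A second, chr20:47557621-47558074, 56.1 kb downstream of the start, had folds of 4.56 and 5.22, then 3.91 and 3.42, over a background 35.0 to 35.9 times the genome-wide level. Next to the start, chr20:47495959-47496665 lay 5.57 kb before it by the median summit, with folds of 3.04 and 6.41, then 3.87 and 6.24. Its summits spread over 432 bp. They lay at 47496492 in library 1 of both groups, and in library 2 at 47496135 with PPARα and 47496060 with ERβ. Folds describe peaks within a list and are not compared between lists.

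NCOA3 also had the ERα peaks that ranked highest by −log10 q among the p160 genes. At chr20:47530072-47530477, 28.5 kb into the gene, the fold was 10.99 and 13.96 on 21 and 28 fragments in the ERα libraries. PPARα library 1 had a peak of fold 3.27 on 7 fragments at the same place, and PPARα library 2 and both ERβ libraries had none. This was the 1 region in the 9 windows with both a PPARα and an ERα peak. At chr20:47621208-47621669 the fold was 13.2 and 13.1 in the ERα libraries and no other library had a peak. The nearest recurrent PPARα region, described above at 47627870, began a few kb further on, so the groups marked different places of the same stretch of NCOA3. A region in both ERβ libraries and no other, chr20:47570963-47571335, was small, with folds of 4.23 and 4.03 on 9 and 10 fragments.

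NCOA1, which encodes SRC-1, had no peak in ERα library 1. Its window held 6 and 11 peaks with PPARα, 0 and 6 with ERα, and 7 and 7 with ERβ. Of the 6 peaks of ERα library 2, 1 overlapped a peak of another library, at chr2:24810048-24810519 in ERβ library 1. Of the 20 regions at NCOA1, 5 were occupied with PPARα, 3 with ERβ and 0 with ERα. All 3 of the ERβ regions were also in both PPARα libraries. One lay 46.0 kb before the gene in the lncRNA LOC105374329 (chr2:24444899-24445365) with folds of 5.08 and 7.67, then 3.98 and 3.84. Another, chr2:24759739-24760330, was inside NCOA1 near its end, with folds of 3.75 and 5.01, then 3.46 and 3.25, on 110 to 180 fragments and over a background 51.9 to 53.2 times the genome-wide level. The third, chr2:24540077-24540475, had folds of only 1.94 to 2.17. Sites with backgrounds this high give a low fold even with many fragments.

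NCOA2, which encodes the SRC-2 coactivator (also called TIF2 or GRIP1), had 5 and 15 peaks with PPARα, 8 and 6 with ERα, and 6 and 7 with ERβ. PPARα library 2 alone gave the highest count of any gene and library, and it is also the longest list. The region in all 4 PPARα and ERβ libraries at chr8:70351212-70351609, inside the gene, had folds of 4.43 and 4.90, then 4.29 and 3.89. The one at chr8:70448471-70448820, 7.78 kb inside the higher-coordinate end, had folds of 3.54 and 4.92, then 4.57 and 6.29. Neither had an ERα peak. The ERα libraries shared 3 other regions: chr8:70140246-70140608 with folds of 8.63 and 8.46, chr8:70335139-70335451 with 5.58 and 8.09, and chr8:70107502-70107860, 2.14 kb outside the lower-coordinate end, with 6.49 and 5.78. A region in both ERβ libraries only, chr8:70228007-70228337, had folds of 2.46 and 3.23.

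**Figure D3:**
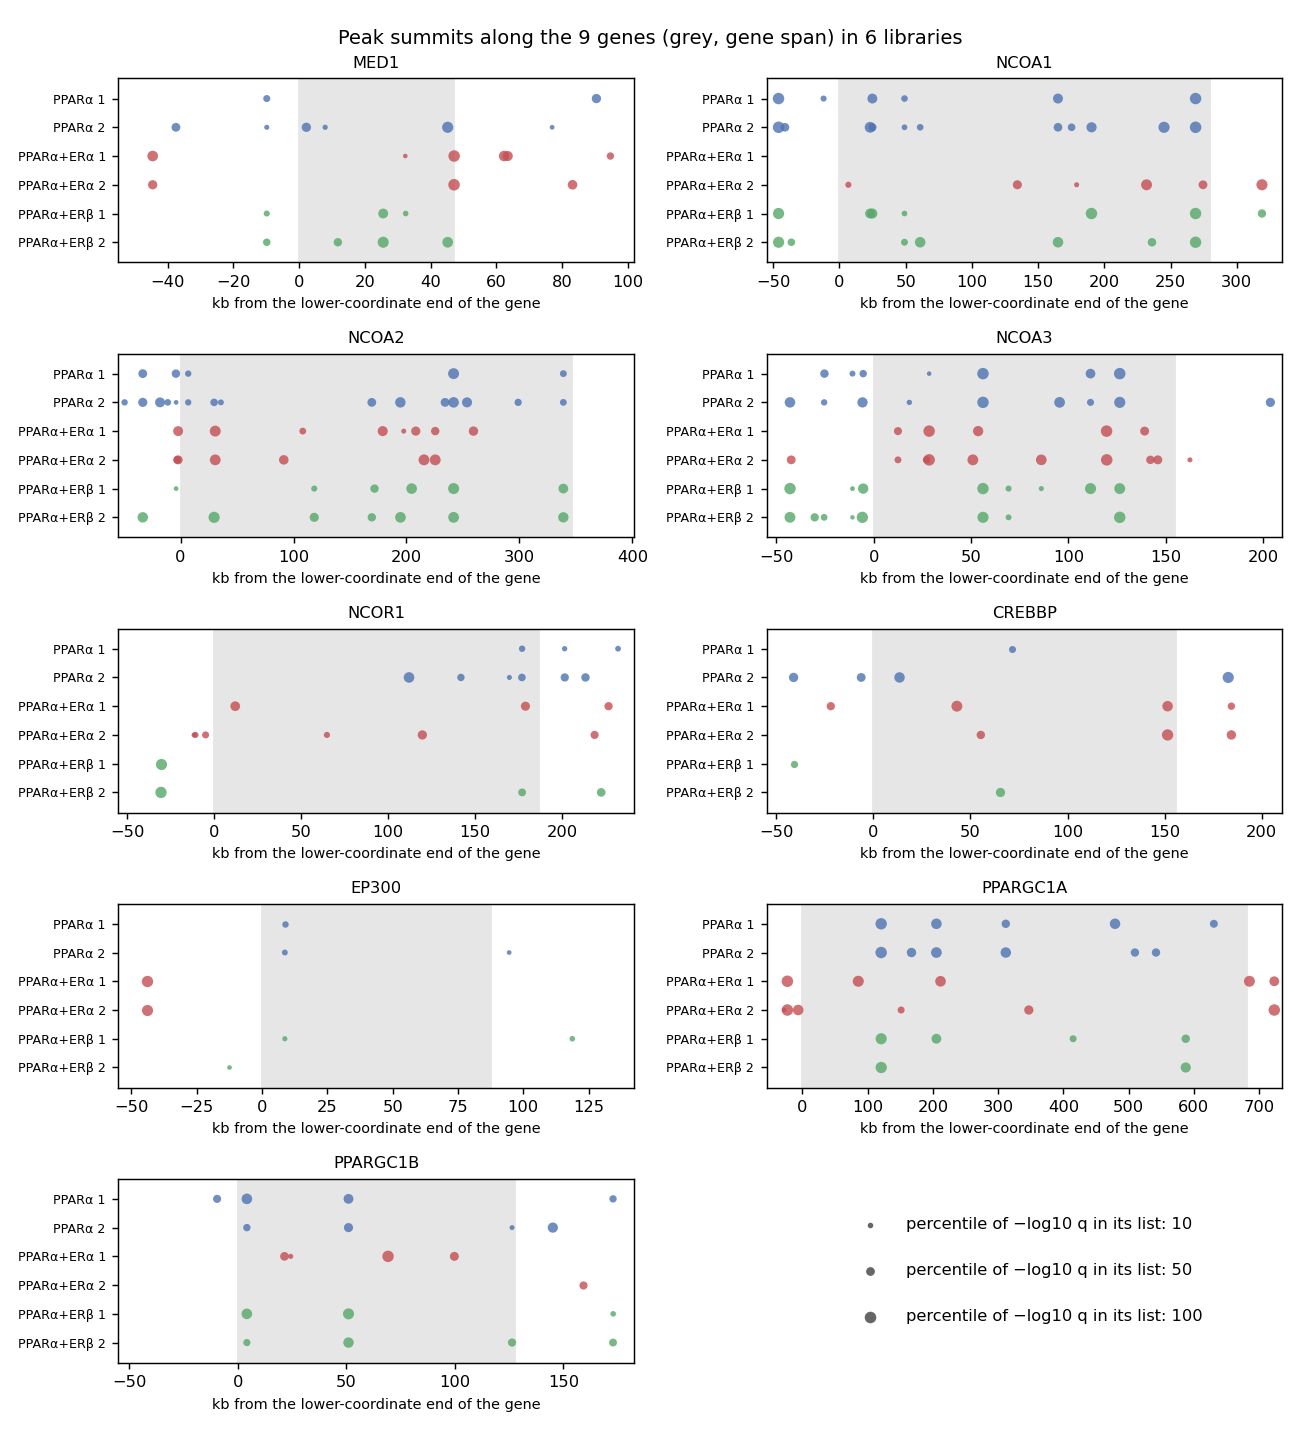
Peak summits (points, size by the percentile of −log10 q within the list) in the 6 libraries (rows of each panel) against distance in kb from the lower-coordinate end of each gene, with the gene span in grey. PPARα and ERβ points align in vertical columns at 12 places seen in all 4 libraries, and ERα points fall at other positions, as in NCOA3 and PPARGC1A.

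MED1, the Mediator subunit that nuclear receptors contact, was the 1 gene with peaks at its promoter among the 8 found in the promoter table, which did not match NCOA2. Both ERα libraries had a peak over the promoter, in a region at chr17:39451160-39451572 on GRCh38, and the other 4 libraries had none there. In library 1 the fold was 11.2 on 27 fragments and the summit lay 191 bp upstream of the annotated start. In library 2 the fold was 14.9 on 38 fragments and the summit lay 163 bp upstream. By −log10 q these peaks ranked at percentiles 99.3 and 99.9 of their lists, and the local background was 3.85 times the genome-wide level in both. Other libraries had peaks near the same start, at chr17:39449114-39449824, 1.77 kb downstream of it. There PPARα library 2 had a fold of 6.71 on 77 fragments and ERβ library 2 a fold of 4.25 on 51 fragments. Promoter peaks were rare in every group. Of 34961 stretches of 250 bases before an annotated start regions occupied with PPARα overlapped 0.272%, with ERα 0.263% and with ERβ 0.26%. The 8 genes had 13 starts, and only that of MED1 was overlapped. Distance to a start was counted for fewer peaks than the lists hold: 22671 and 34628 with PPARα, 23360 and 26288 with ERα, 16605 and 22257 with ERβ. Of these, 1.60% and 1.62% of PPARα peaks, 2.05% and 2.02% of ERα peaks and 2.156% and 2.035% of ERβ peaks had a summit within 1 kb of a start.

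The 250 bases upstream of the MED1 start are shown because both peaks lie over them, and those of NCOA3 and NCOA1 because these densely covered genes had no peak there in any library. The sequences are from RefSeq on GRCh38.p14, read 5′ to 3′ on the gene's strand, at chr17:39451264-39451513 (minus strand) for MED1, chr20:47501637-47501886 (plus strand) for NCOA3 and chr2:24491004-24491253 (plus strand, the first of 3 NCOA1 starts) for NCOA1. Capitals mark matches, on either strand and with overlapping copies counted, to TCTCGCG, the box CCAAT or the GC box GGGCGG.
MED1: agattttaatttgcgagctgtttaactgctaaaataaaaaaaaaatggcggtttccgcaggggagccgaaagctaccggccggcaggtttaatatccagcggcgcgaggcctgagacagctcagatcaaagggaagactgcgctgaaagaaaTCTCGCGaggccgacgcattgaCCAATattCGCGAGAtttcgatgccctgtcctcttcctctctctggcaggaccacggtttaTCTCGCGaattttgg
NCOA3: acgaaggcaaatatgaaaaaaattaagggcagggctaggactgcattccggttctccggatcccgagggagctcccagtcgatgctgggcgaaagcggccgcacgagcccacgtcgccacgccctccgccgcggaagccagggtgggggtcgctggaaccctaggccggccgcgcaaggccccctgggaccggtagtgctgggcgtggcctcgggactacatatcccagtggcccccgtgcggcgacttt
NCOA1: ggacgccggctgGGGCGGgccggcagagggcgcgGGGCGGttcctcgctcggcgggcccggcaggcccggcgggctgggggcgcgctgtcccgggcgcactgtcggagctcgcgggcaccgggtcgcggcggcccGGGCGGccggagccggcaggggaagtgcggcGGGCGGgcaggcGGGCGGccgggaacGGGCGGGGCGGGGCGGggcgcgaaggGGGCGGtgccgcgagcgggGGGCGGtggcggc

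The MED1 sequence held TCTCGCG 3 times, at positions 153 to 159, 183 to 189 (on the other strand) and 236 to 242, counted from 1 at the left end. CCAAT stood at positions 175 to 179. The summits fell at positions 60 and 88, to the left of all 4 matches. Of 35116 promoters of this length, 2.95% held TCTCGCG at least once and 42 held it 3 or more times. CCAAT was in 32.01% of them and the GC box in 42.6%. The nuclear receptor hexamer AGGTCA was in 12.1% of promoters and 2 copies of it in direct repeat with 1 base between (DR1) in 0.0171%, and none of the 13 promoters of the 8 genes held either. That says only that these letters are not in these windows. TCTCGCG, the CCAAT box and the GC box were chosen after the MED1 sequence had been read. TCTCGCG was in 7 of the 92 promoters overlapped with ERα, in 7 of 91 with ERβ and in 1 of 95 with PPARα. MED1, whose sequence led to this choice of motif, is itself among those overlapped with ERα. The MED1 stretch had a GC content of 50.4%, below the median of 58.0% over all promoters, while NCOA3 had 66.4% and NCOA1 87.2% with 10 GC boxes.

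Elsewhere around MED1 the groups differed in the way seen at the p160 genes. Its window held 2 and 6 peaks with PPARα, 6 and 3 with ERα, and 3 and 4 with ERβ. A region in FBXL20, 9.86 kb from the end of MED1 (chr17:39394240-39394582), was in all 4 PPARα and ERβ libraries, with folds of 4.91 and 3.51, then 3.94 and 4.27. A region inside MED1, chr17:39429713-39430118, was in both ERβ libraries only, with folds of 5.91 and 7.63 on 22 and 33 fragments. Within 3 kb of a gene end, MED1 and NCOA2 (2 of 9 genes) had a region in both ERα and neither PPARα library, where 4.37% of all genes did. In the other direction, 0 of 9 had one, with a background of 6.61%.

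The acetyltransferase genes had few peaks, and the ones that recurred were mostly those of the ERα libraries. CREBBP, which encodes CBP, had 1 and 4 peaks with PPARα, 4 and 3 with ERα, and 1 and 1 with ERβ. No region at CREBBP was seen in both PPARα or both ERβ libraries. The ERα libraries shared chr16:3876412-3876752, inside the gene and 3550 bp downstream of the nearer of its 2 starts, with folds of 7.31 and 9.57 on 13 and 18 fragments. They also shared chr16:3909210-3909564, 28.7 kb upstream, with folds of 3.995 and 4.874. EP300 had 1 and 2 peaks with PPARα, 1 and 1 with ERα, and 2 and 1 with ERβ. Both ERα peaks lay at chr22:41048611-41048993, 43.9 kb before the gene, with folds of 10.1 and 9.24 on 15 and 14 fragments and the same summit. This region is near the limit of the 50 kb window, and the next peak outside that limit, 55.7 kb away, was also an ERα peak, of fold 11.3. Inside EP300, chr22:41100933-41101429 was in both PPARα libraries with folds of 3.91 and 3.93 and in ERβ library 1 with 3.03.

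PPARGC1A held the member peak of highest fold in both PPARα lists. At chr4:23912320-23912807, inside the longer annotated span and 31.6 kb upstream of its internal start, the fold was 13.5 and 19.1 in the PPARα libraries and 10.1 and 9.47 in the ERβ libraries. It rested on 31, 48, 23 and 33 fragments, and neither ERα library had a peak there. Its background was only 2.32 to 3.65 times the genome-wide level, against a median of 18.3 times over the peaks of all 12 regions shared by these 4 libraries. With peaks limited to a background of at most 3 times the genome-wide level, PPARα occupied a region at 1 of the 9 genes, PPARGC1A. PPARGC1A as a whole was sparsely covered for its length, with 5 and 6 peaks with PPARα, 5 and 6 with ERα, and 4 and 2 with ERβ, over the longest of the 9 windows at 780885 bp. The ERα libraries shared 2 regions outside the gene, one 23.2 kb beyond its end in the lncRNA LOC105374528 (chr4:23768644-23769009) with folds of 12.95 and 14.09, and one 42.5 kb upstream (chr4:24515119-24515578) with 6.66 and 11.7. The region in both ERβ and neither PPARα library, chr4:24379446-24379796, had folds of 3.73 and 4.45. The reverse case, chr4:24103597-24104020, had folds of 3.38 and 5.13 in the PPARα libraries.

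PPARGC1B, the PGC-1β gene, was marked at the same 2 places in the PPARα and ERβ libraries. It had 4 and 4 peaks with PPARα, 4 and 1 with ERα, and 3 and 4 with ERβ. The region chr5:149734331-149734738, 4.18 kb inside the gene's lower-coordinate end, had folds of 6.95 and 4.46, then 5.81 and 3.41. The region chr5:149781206-149781601, 9366 bp downstream of the start in the promoter table, had folds of 5.63 and 6.10, then 6.55 and 5.50. A region in PDE6A, 45.2 kb beyond the gene (chr5:149902507-149903370), was in both ERβ libraries with folds of 2.97 and 3.88 and in PPARα library 1 with 4.13. The 5 ERα peaks at PPARGC1B all lay at different places, so no region was occupied in that group.

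By the share of regions seen in 1 library only, the corepressor gene NCOR1 showed the least agreement between libraries. It had 3 and 6 peaks with PPARα, 3 and 6 with ERα, and 1 and 3 with ERβ, and 15 of its 18 regions were seen in 1 library only. By regions seen in 3 or more libraries CREBBP was lower, with 0 against 1 at NCOR1. The region chr17:15998403-15998770 was in both ERβ libraries and no other, with folds of 8.21 and 9.17 on 30 and 39 fragments. It lies in ZSWIM7, 30.5 kb beyond the end of NCOR1. Inside NCOR1, chr17:16205939-16206292 was in both PPARα libraries with folds of 4.42 and 6.47 and in ERβ library 2 with 4.99. In PIGL, 15.0 kb upstream of NCOR1, chr17:16230339-16231089 was in both PPARα libraries only, with folds of 2.23 and 3.56. The ERα libraries shared no region at NCOR1.

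Read over all 9 genes, PPARα and ERβ libraries shared many regions and ERα libraries shared few with either, as in the whole lists. The windows held 153 of 92292 regions, and 62.7% of them were seen in 1 library only, against 60.1% of all regions. None of the 153 was seen in 5 or 6 libraries, where 604 and 123 of all regions were. Of the regions with a PPARα peak, 45.2% had an ERβ peak (47.5% of all regions), and of those with an ERβ peak, 63.5% had a PPARα peak (66.1%). Of the 65 regions with an ERα peak, 1.54% had a PPARα peak (4.74%) and 4.62% an ERβ peak (7.49%). All 4 PPARα and ERβ libraries shared 12 regions, at NCOA1 (3), NCOA3 (3), NCOA2 (2), PPARGC1B (2), MED1 (1) and PPARGC1A (1). None of these 12 had an ERα peak, where 606 of 6521 such regions genome-wide did.

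**Figure D4:**
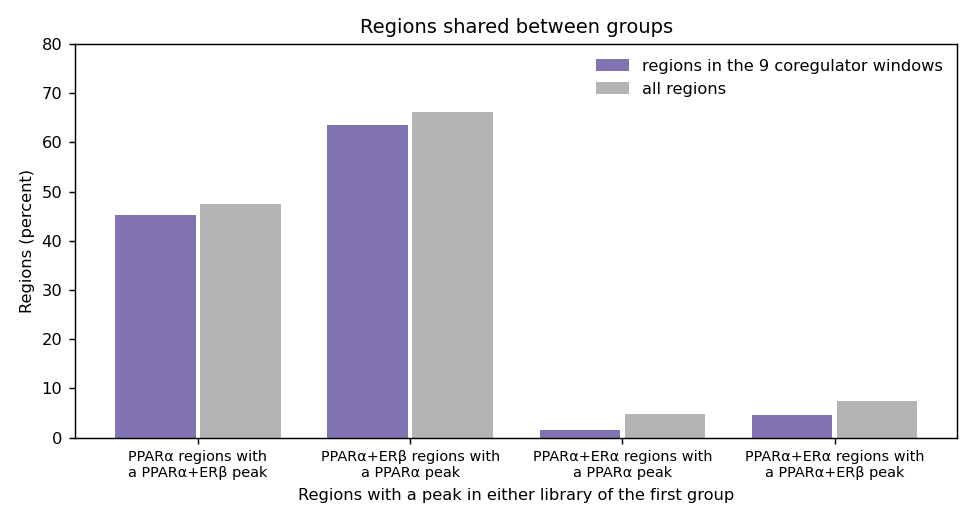
Share of regions (percent) that also had a peak in the second group named under each pair of bars, for regions in the 9 coregulator windows (purple) and for all regions (grey). PPARα and ERβ shared 45.2% and 63.5% of their regions in the windows, and ERα shared 1.54% and 4.62% with the others, where the grey bars stand at 4.74% and 7.49%.

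The 2 sets of regions also differed in the background they rose from. The 48 peaks of the 12 regions in all 4 PPARα and ERβ libraries had a median local background 18.3 times the genome-wide level and a median of 50 fragments. For all such regions without an ERα peak, the medians were 12.1 times and 39 fragments. The 26 peaks of the 13 regions in both ERα libraries had a median background of 2.04 times and 16 fragments, against 1.53 times and 10 fragments for all such regions. Among all member peaks of a list, the median background was 11.8 and 15.7 times the genome-wide level with PPARα, 2.57 and 2.46 times with ERα, and 9.89 and 10.96 times with ERβ. The peaks called in the groups around these genes thus differed in background, as in the whole lists. They mostly lay at different places. At the 1 region with a PPARα and an ERα peak, the background was 2.45 times in PPARα library 1 and 2.57 times in both ERα libraries. At the 3 regions with an ERα and an ERβ peak, it was 2.57, 5.14 and 5.56 times in ERα libraries 2, 1 and 2. In ERβ library 1 it was 2.47, 6.18 and 13.6 times there. The part of this background in the differing regions was not tested. With peaks limited to at most 3 times the genome-wide level, the windows kept 5.5 peaks per library with PPARα, 24.5 with ERα and 4.5 with ERβ.

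**Figure D5:**
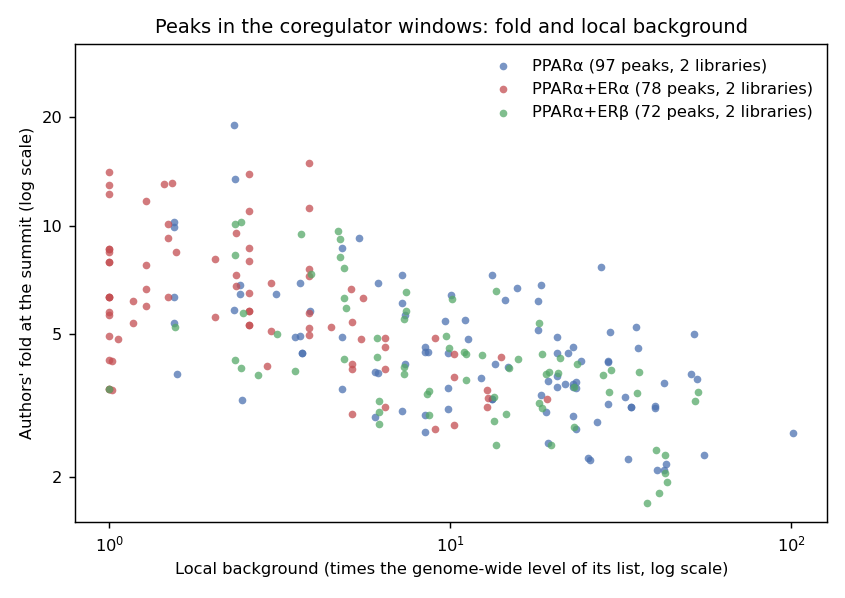
Fold of the authors (log scale) against local background in multiples of the genome-wide level (log scale) for the 247 peaks of the coregulator windows, coloured by group. ERα peaks gather at the left, with medians of 2.57 and 2.46, and PPARα and ERβ peaks to the right, with medians between 9.89 and 15.7.

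Among the further 77 genes, 71 cofactors and 6 receptors, 9 had a region within 3 kb of an end that both libraries of a group shared. They were 3 with PPARα, 6 with ERα and 3 with ERβ, and the share of all genes was not counted by this rule. Within 3 kb, 5 genes (6.49%) had a region in both ERα and neither PPARα library, against 4.37% of all genes. The reverse held at 3 genes (3.90%), against 6.61% of all genes. ARID1A, a subunit of the BAF chromatin remodelling complex, had an ERα region upstream of its start with folds of 7.55 and 7.32, and LCOR, a ligand-dependent corepressor, had one before its start with 5.33 and 5.71. PAXIP1, a subunit of histone methyltransferase complexes, had a region in both PPARα libraries (8.68 and 8.45) and both ERβ libraries (7.36 and 7.71). NCOA4 had a region in both ERα libraries (5.00 and 4.81) that was also in both ERβ libraries (6.13 and 6.60) and PPARα library 2 (4.55). MED22, NCOA6 and MED27 were the others with ERα, MED15 with ERβ and TBL1XR1 with PPARα. By the rules used for the 9 genes, 34 of these 77 genes (44.2%) had a region in both ERα and neither PPARα library, against 36.7% of all genes, and 48 (62.3%) had the reverse, against 58.9%. A region in both ERβ libraries but in no PPARα library was found at 11 (14.3%, against 10.8%), and the reverse at 14 (18.2%, against 25.3%).

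Other genes with a like pattern were found by the distance between genes, over the 6 libraries, of the within-list percentile of the strongest peak in the window. NCOA3 had the nearest ones, AP4S1 at a distance of 1.29 percentile points and PSMD12 at 1.87, where the median distance to all genes on other chromosomes was 153.4. KLHL41 and FASTKD1 stood at 2.50 from PPARGC1A, and both gave the same percentiles in every library. CCNE2 (3.81) and ELMO3 (6.46) were nearest to NCOA1, CD164 (7.15) and NKX2-1 (12.3) to EP300, RAD9B (7.42) and ASXL1 (7.56) to MED1, and SLIT2 (7.72) and CPO (9.65) to NCOA2. SDC1 (13.3) and PICALM (14.03) were nearest to PPARGC1B, HIVEP3 (17.3) and ACVR1C (18.0) to CREBBP, and CALML6 and TMEM52 (both 19.1) to NCOR1. None of these 18 genes was named when strongest peaks were ranked by fold in place of −log10 q, so the likeness holds for this measure only.

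At the edge of the window, the farthest counted peak lay 49.5 kb from NCOA2 (fold 3.30, PPARα library 2) and the nearest uncounted one 50.7 kb from NCOA1 (fold 4.69, ERα library 1).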

How the data were processed

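PPARα peaks of 6 HepG2 libraries were analysed. The peak caller named in the submitters' processing notes is MACS2 2.2.7.1, beside Bowtie 1.0.1 and Trim Galore 0.6.4, with GRCh38.p13 (hg38) as the build. Their settings and the control used are not given in the sources used here. The authors' score is 10 times the −log10 q, the authors' fold is a ratio of a summit to its local background, and each deposited −log10 p or −log10 q belongs to a summit. Peaks were called per sample, per the deposited lists. Depth in reads is not given in these lists.

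Fragments and local background at each summit were computed back from the deposited fold and its −log10 p, with 1 added above and below and a Poisson tail; whole fragments gave back the deposited −log10 p to within 0.001 in 100% of peaks. Peaks overlapping by 1 bp or more were merged into regions. Gene spans came from a RefSeq table of GRCh38.p14, and starts and upstream sequences from its promoter table. Exons, introns and proteins were not used here. Counting was tested on simulated data. Groups were compared by exact permutation over libraries or by counts beside all genes. The alternatives changed the window, the merging, the −log10 q, the list length, the background and the libraries. The members and lists were chosen with earlier results of these data known. All 9 genes were named. The regions shared by both libraries of a group or found in 3 or more libraries are described in part, and not all of them are named. The tools were SciPy 1.17.1, NumPy 2.4.6 and pandas 2.3.3 under Python 3.11.15, with plots from Matplotlib 3.10.9.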

Additional observations from a re-analysis of the deposited data

How the results depend on the processing

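No paired analysis was possible because the labels give the groups no shared replicate numbers and the library numbers follow the order of deposit. The results rest on 2 libraries a group, on the authors' calls and on a window set by distance, and the depth in reads is unknown. Mean peaks per library in the 9 windows, which were 48.5, 39.0 and 36.0 for PPARα, PPARα+ERα and PPARα+ERβ, became 25, 31.5 and 33.5 with each list limited to its 17457 best peaks, and 5.5, 24.5 and 4.5 with the local background at most 3 times the genome-wide level. The order of the groups thus turned with equal lists. They were 31.5, 23 and 24 in the span only, 36, 27.5 and 26.5 within 10 kb, 58.5, 50.5 and 44.5 within 100 kb, and 40.5, 28.5 and 27 with −log10 q of at least 5. Without 1 library they ran from 34 to 63, 36 to 42 and 35 to 37. Genes occupied with PPARα numbered 5 with −log10 q of at least 5, 5 with equal lists and 1 with the low background, and the genes with a PPARα region absent from PPARα+ERα numbered 5, 5 and 1 likewise. In the span only, genes occupied with PPARα+ERα, and those with such a region absent from PPARα or from PPARα+ERβ, numbered 3 each. With the low background, genes occupied with PPARα+ERβ numbered 1, and so did those with such a region absent from PPARα+ERα or from PPARα. The last count was 3 with −log10 q of at least 5 and 8 without PPARα+ERβ library 1. Genes with a PPARα region absent from PPARα+ERβ numbered 5 within 100 kb, 1 with equal lists, 0 with the low background, and 5 to 9 without 1 library. The difference in the share of a list in the windows, PPARα+ERα minus PPARα, was -0.00849 percentage points and ran from -0.02385 without PPARα library 1 to 0.006869 without PPARα library 2, a turn of sign. The other differences in share kept their sign without any 1 library. Of the 18 genes most like a member, 0 were named by fold percentile. The cause of these changes was not tested, beyond the loss of peaks or libraries that each alternative makes.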
